A study of Homo sapiens with 10 samples.

Results

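A list of 47 genes of the nucleolus, of RNA polymerase I and of ribosome assembly was examined in T47D breast cancer cells given the synthetic progestin R5020. The list was drawn up by role in the cell, with earlier results of these data known, so its counts beside all genes are descriptive. Each gene was read on the probe set that maps to that gene alone with the highest mean over the 10 arrays, and 38 of the 47 genes had such a probe set. The other 9 (NOP56, NOP58, DKC1, LYAR, BOP1, PPAN, GNL3, EBNA1BP2 and DDX18) have no value here, 4 of them because their probe sets are shared with other genes. All 38 measured genes passed the level filter (highest array at log2 6 or more), as did 10911 of the 11963 genes on the array. Their mean levels ran between log2 8.05 and 13.96, with a median of 10.36, against a median of 8.84 over all genes.

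RNA came from 3 lines made in T47D-Y cells, which lack the progesterone receptor (PR). The iKR line carries PR-B with the K388R change, which removes the SUMO attachment site, the iWT line carries wild-type PR-B, and the iEV line carries the empty vector. All 3 vectors are driven by the dimerizer AP21967, given for 2 days, and R5020 or its ethanol vehicle was then given for 6 h. iKR and iWT were each measured with both compounds, with AP21967 alone, with R5020 alone and with neither, and iEV with and without AP21967 and never with R5020. Every condition has 1 Affymetrix array, so a difference between 2 arrays has no replicate check and is given without a p. Each vector is represented by 1 line, so the effect of the vector and that of the clone cannot be told apart. Tests come from limma fits in which the iKR and iWT lines stand in as replicates of 1 shared R5020 response, and a gene is called when its Benjamini-Hochberg adjusted p over all 10911 genes was under 0.05. These p values measure only the spread left within that fit, and they do not test iKR against iWT for the response to R5020.

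The PGR gene, which encodes PR, was at 12.08 and 10.65 in iKR cells with and without AP21967, at 11.34 and 11.12 in iWT cells, and at 6.17 and 6.25 in iEV cells, all without R5020. The receptor lines therefore stood far above iEV before the inducer was added. All 8 luminal breast markers were bright, with mean levels of 10.25 to 15.01, while fibroblast, immune and endothelial markers lay between 5.12 and 9.70, and COL3A1 and CDH5 lay under log2 6. With R5020 and AP21967, 0 of the 8 luminal markers lay above 0 in the shared fit described above and 3 were called lower, with a median difference of -0.224 (log2), or -0.332 in iKR and -0.087 in iWT cells, and their part in the results below was not tested. As in any bulk sample, fewer cells with an RNA and less RNA per cell cannot be told apart.

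Ribosomes are built in the nucleolus. RNA polymerase I copies the long precursor of the ribosomal RNAs there, small nucleolar ribonucleoproteins (snoRNPs) modify it, the small subunit processome folds and cuts the part that becomes the 40S subunit, and a separate set of factors assembles the 60S subunit. Growing cells, tumor cells among them, raise this output together with the transcription factor MYC, which binds the E-box motif CACGTG near the start sites of many of these genes. PR binds other DNA, a pair of inverted TGTTCT half-sites, mostly in enhancers far from start sites.

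The promoters show how widely the E-box occurs among these genes. RefSeq promoter windows (GRCh38.p14, 250 bases before to 50 bases after each start) were found for 39 of the 47 genes, 8 of them among the 10 genes called below. The palindrome CACGTG stood in at least 1 window of 18 of these 39 genes, or 46.2%, against 12.4% of 8767 genes tested on the arrays and 8.77% of all 27305 genes with a window. Of the 22 E-boxes in the listed genes, 17 (77.3%) began within 50 bases of the start, against 36.9% of 2821 E-boxes in all promoters; windows of 1 gene can overlap. Among the genes called with R5020, 3 of 8 held an E-box (NOP14, WDR43 and BYSL), against 12 of 25 measured genes that were not called. The full PR response element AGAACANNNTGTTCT was in 0 of 49 windows of the listed genes and in 1 of 35116 windows overall. A single half-site, TGTTCT on either strand, was in 14.3% of the 49 windows and in 14.8% of all. It was in 2 of 8 windows of called genes and 5 of 31 of measured genes not called, together 17.9% of 39, against 10.8% of 12965 windows of genes tested on the arrays. A match describes the letters only, and binding was not measured.

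To show what these windows look like, 4 are printed 5′ to 3′ on the gene's own strand, from 250 bases before to 30 bases after the start, with CACGTG in capitals. NOP16 (chr5:176388569-176388848, minus strand) was called with R5020 and has no E-box. NOP14 (chr4:2963377-2963656, minus strand) and WDR43 (chr2:28894417-28894696, plus strand) were called and have 1 each, which begin at bases 16 and 4 with the start counted as base 1. FBL (chr19:39846350-39846629, minus strand) has 1 that begins at base 7 and was not called.
NOP16: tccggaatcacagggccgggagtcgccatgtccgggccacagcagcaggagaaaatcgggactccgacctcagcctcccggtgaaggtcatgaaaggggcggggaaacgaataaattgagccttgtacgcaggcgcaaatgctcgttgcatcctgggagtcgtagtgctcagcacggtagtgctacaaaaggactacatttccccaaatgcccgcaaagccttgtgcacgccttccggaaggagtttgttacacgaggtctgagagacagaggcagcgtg
NOP14: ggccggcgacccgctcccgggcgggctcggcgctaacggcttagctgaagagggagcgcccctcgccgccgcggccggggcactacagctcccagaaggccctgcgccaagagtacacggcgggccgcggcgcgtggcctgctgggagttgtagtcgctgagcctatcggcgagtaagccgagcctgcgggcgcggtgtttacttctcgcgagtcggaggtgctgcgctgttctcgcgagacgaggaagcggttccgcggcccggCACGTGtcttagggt
WDR43: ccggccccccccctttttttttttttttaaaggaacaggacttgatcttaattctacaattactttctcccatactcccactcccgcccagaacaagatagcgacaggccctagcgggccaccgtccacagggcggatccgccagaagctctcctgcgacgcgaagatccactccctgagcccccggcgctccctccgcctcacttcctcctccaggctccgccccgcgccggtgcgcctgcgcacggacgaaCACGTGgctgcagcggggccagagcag
FBL: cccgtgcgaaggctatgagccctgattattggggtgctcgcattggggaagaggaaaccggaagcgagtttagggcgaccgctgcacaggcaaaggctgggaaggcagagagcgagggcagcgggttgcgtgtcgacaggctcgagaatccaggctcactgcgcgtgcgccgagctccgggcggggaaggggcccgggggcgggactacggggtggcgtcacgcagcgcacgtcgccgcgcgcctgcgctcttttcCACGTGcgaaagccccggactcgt

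With AP21967 present, R5020 raised 10 of the 38 genes (26.3%) and lowered 0 in the shared limma fit, against 5.23% of all genes raised and 6.25% lowered. Before adjustment, 21 lay above and 0 below at p under 0.05, against 1335 and 1589 of all 10911 genes. The 10 were URB2, NOP16, NIP7, BYSL, DDX56, NOP14, RRS1, TSR1, WDR43 and POLR1C. Of these, 5 act in 60S assembly, 4 in the small subunit pathway and 1 in RNA polymerase I. The median fitted difference was 0.198 (log2) over the 38 genes and 0.007 over all genes. On single arrays the median difference was 0.249 in iKR and 0.135 in iWT cells, against 0.026 and -0.017 over all genes. In iKR cells 34 of the 38 differences were above 0 and in iWT cells 29, with 25 above 0 and 0 below 0 in both lines. Of all genes, 55.6% were above 0 in iKR, 46.0% in iWT and 32.9% in both. In both lines, 23 of the 38 genes were higher on the array with both compounds than on each of the other 3 arrays of the line, as were 19.4% of all genes.

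MYC was at 8.01 in iKR cells with both compounds, against 7.25 with AP21967 alone, 7.17 with R5020 alone and 7.35 with neither. In iWT cells it was at 7.96 with both, against 7.34, 7.50 and 7.53 in the same order, and in iEV cells at 7.41 with AP21967 and 7.40 without. Only the arrays with both compounds stood above the rest, and they did so in both lines. In the shared fit MYC rose by 0.69 (SE 0.08, adjusted p = 0.0013, limma), or 1.61 fold, and the inducer-dependent part of this response, the response with AP21967 minus that without, was 0.79 (SE 0.12, adjusted p = 0.012), or 0.72 (adjusted p = 0.086) without either uninduced iKR array.

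**Figure D1:**
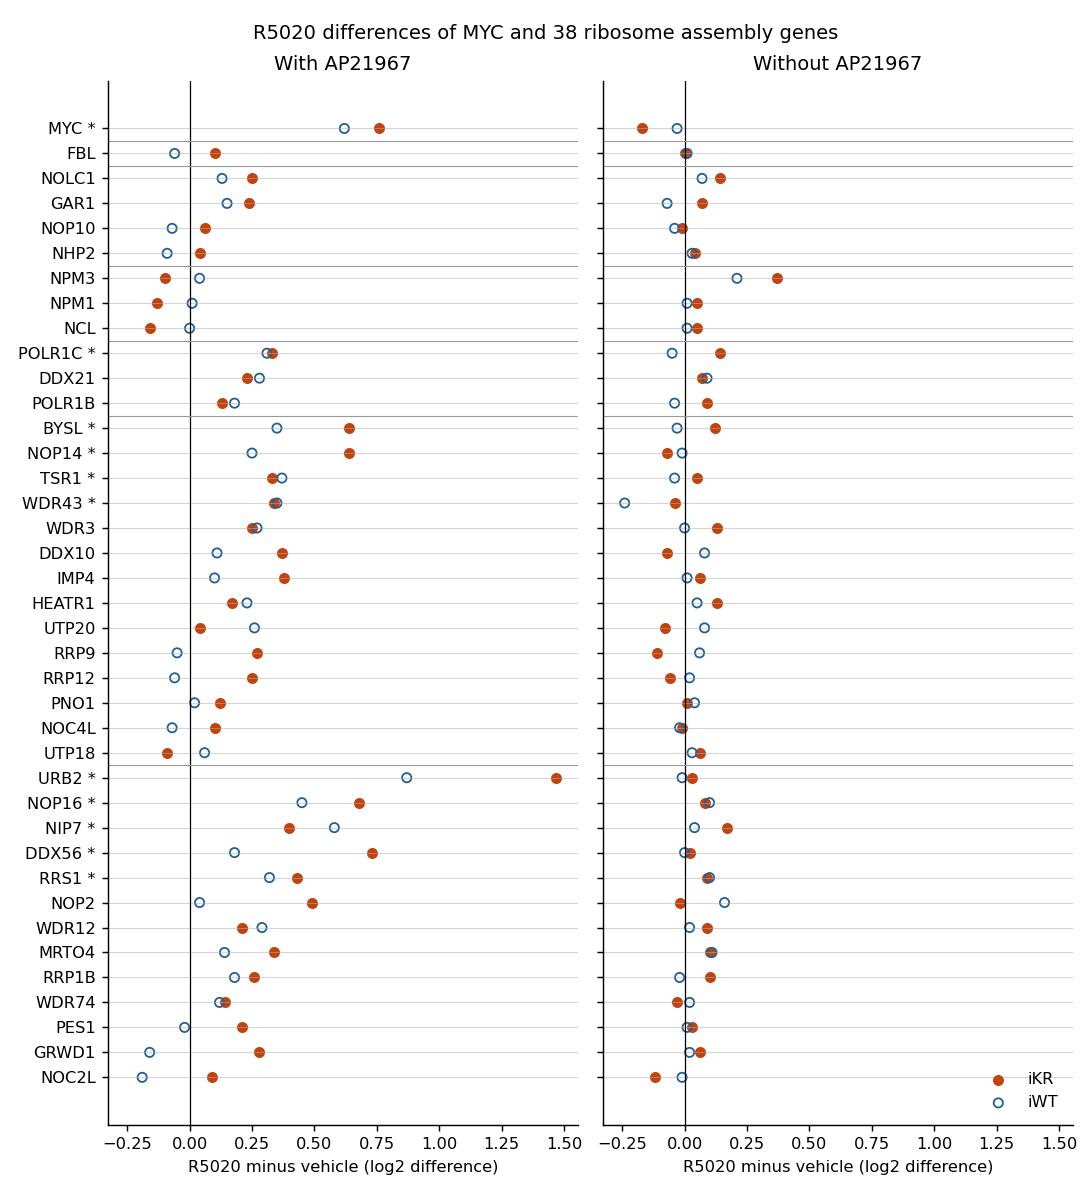
R5020 minus vehicle (log2, x axis) for MYC and the 38 measured genes, with AP21967 on the left and without it on the right; filled circles are iKR, open circles iWT, each a difference between 2 single arrays. Horizontal lines separate the 6 role groups, from box C/D snoRNPs at the top to 60S assembly at the bottom, and an asterisk marks a gene called by limma with AP21967. With AP21967 most genes lie right of 0, up to 1.47 for URB2 in iKR, and without it they lie between -0.24 and 0.37.

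Among the 60S assembly factors, 5 of 13 measured genes rose (URB2, NOP16, NIP7, DDX56 and RRS1) and 0 fell, against 5.23% and 6.25% of all genes. URB2, named for the yeast protein of early 60S particles, was at 10.27 in iKR cells with both compounds, against 8.79 with AP21967 alone, 8.80 with R5020 alone and 8.77 with neither. In iWT cells the same 4 arrays gave 9.73, against 8.86, 8.87 and 8.87, and iEV cells gave 8.71 with AP21967 and 8.68 without. The 2 arrays with both compounds stood apart from the 8 others, which spanned 8.68 to 8.87. URB2 rose by 1.17 (SE 0.13, adjusted p = 0.00085), or 2.25 fold, beside 1.61 fold for MYC. It was also the single gene of the 38 called for the inducer-dependent response, at 1.16 (SE 0.18, adjusted p = 0.015).

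NOP16, a nucleolar 60S assembly factor, was at 11.40 in iKR cells with both compounds, against 10.72 with AP21967 alone, 10.82 with R5020 alone and 10.74 with neither. On the iWT arrays it was at 11.32 with both, against 10.87, 10.89 and 10.79, and in iEV cells at 10.68 with AP21967 and 10.69 without. It rose by 0.56 (SE 0.08, adjusted p = 0.0038). This call rests on the brightest of its 4 probe sets. The next, with a mean of 8.86, was higher by 0.16 in iKR and 0.46 in iWT, and the 2 dimmest differed by at most 0.10; with the mean of the 4 the difference was 0.24 and the adjusted p 0.061.

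NIP7, a factor of pre-rRNA processing and 60S formation, was at 10.23 in iKR cells with both compounds, against 9.83, 9.93 and 9.77 with AP21967 alone, R5020 alone and neither. The iWT arrays gave 10.37, against 9.79, 9.80 and 9.76, and the iEV arrays 9.75 with AP21967 and 9.53 without. NIP7 rose by 0.49 (SE 0.08, adjusted p = 0.0068), and here the iWT difference (0.58) was larger than the iKR one (0.40). RRS1, which with RPF2 brings the 5S ribonucleoprotein to the pre-60S particle in yeast, was at 11.31 in iKR cells with both compounds, against 10.87 to 10.98 on the other 3 arrays. It was at 11.23 in iWT cells with both, against 10.88 to 10.98 on the others, and at 10.80 and 10.73 in iEV cells with and without AP21967. RRS1 rose by 0.38 (SE 0.08, adjusted p = 0.016).

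DDX56, a nucleolar RNA helicase, was at 11.79 in iKR cells with both compounds, against 11.06 to 11.09 on the other 3 arrays, and at 11.38 in iWT cells with both, against 11.17 to 11.20. Both iEV arrays were lower than all 8 others, at 10.64 with AP21967 and 10.70 without. It rose by 0.45 (SE 0.12, adjusted p = 0.041), with a difference of 0.73 in iKR and of 0.18 in iWT. Without either of the 2 induced iKR arrays the response rests on the iWT pair alone, at 0.18, and was not called.

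The other 8 measured 60S factors were not called. NOP2, a methyltransferase of the large subunit rRNA, was at 10.12 in iKR cells with both compounds, against 9.63 to 9.70 on the other 3 arrays. The iWT array with both compounds gave 9.87, against 9.61 to 9.84, and iEV gave 9.63 with AP21967 and 9.60 without. The iKR array with both compounds was the highest of all 10, and the iWT one lay 0.04 above AP21967 alone, so that the shared difference was 0.27 (SE 0.11, adjusted p = 0.17). WDR12 and PES1, which form the PeBoW complex with BOP1, differed by 0.21 each in iKR and by 0.29 and -0.02 in iWT cells. MRTO4, a relative of the ribosomal stalk protein P0, differed by 0.34 and 0.14, RRP1B by 0.26 and 0.18 and WDR74 by 0.14 and 0.12, iKR before iWT. The second probe set of WDR74, with a mean of 10.64, gave 0.50 in iKR and 0.09 in iWT. GRWD1, a histone-binding protein, was at 0.28 in iKR and -0.16 in iWT cells, and NOC2L, the relative of yeast Noc2, at 0.09 and -0.19.

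In the small subunit processome and 40S assembly, 4 of 14 genes rose (BYSL, NOP14, TSR1 and WDR43) and 0 fell, against 5.23% and 6.25% of all genes. BYSL, or bystin, a factor of 40S maturation, was at 10.38 in iKR cells with both compounds, against 9.74, 9.83 and 9.72 with AP21967 alone, R5020 alone and neither. In iWT cells it was at 10.26, against 9.91, 9.85 and 9.89, and in iEV cells at 9.31 with AP21967 and 9.36 without. BYSL rose by 0.49 (SE 0.09, adjusted p = 0.011), and iEV lay below every array of the receptor lines.

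NOP14, a core protein of the processome, was at 10.20 in iKR cells with both compounds, against 9.56, 9.42 and 9.49 on the other arrays in the same order. In iWT it reached 9.85, against 9.60, 9.57 and 9.58, and it was at 9.48 and 9.53 in iEV cells with and without AP21967. NOP14 rose by 0.45 (SE 0.10, adjusted p = 0.023), with a larger difference in iKR (0.64) than in iWT (0.25). Without either induced iKR array only the iWT pair is left, at 0.25, and it was not called.

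TSR1, which sits on late pre-40S particles, was at 11.19 in iKR cells with both compounds, against 10.85 to 11.02 on the other 3 arrays, and at 11.27 in iWT cells with both, against 10.90 to 11.01. The iEV arrays gave 11.00 with AP21967 and 10.80 without. The differences were alike in size in the 2 lines (0.33 in iKR and 0.37 in iWT), and TSR1 rose by 0.35 (SE 0.08, adjusted p = 0.021). Its 2 other probe sets gave 0.23 and 0.08 in iKR and 0.32 and 0.43 in iWT cells.

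WDR43, a subunit of the complex that binds the nascent pre-rRNA, was at 8.29 in iKR cells with both compounds, against 7.95 to 8.0 on the other 3 arrays, and at 8.43 in iWT cells with both, against 7.97 to 8.21. In iEV cells it was at 7.74 with AP21967 and 7.89 without. WDR43 rose by 0.34 (SE 0.08, adjusted p = 0.029), by 0.34 in iKR and 0.35 in iWT, and without any 1 of the 4 uninduced arrays of the receptor lines it was no longer called (0.34, highest adjusted p = 0.053). The iWT array with R5020 alone was 0.24 below its vehicle array, the lowest difference of any of these genes without AP21967.

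WDR3, a subunit of the processome's UTP-B complex, had like differences in both lines, 0.25 in iKR and 0.27 in iWT. It was at 10.51 in iKR cells with both compounds, against 10.20 to 10.33 on the other 3 arrays, at 10.65 in iWT cells, against 10.38 to 10.40, and at 10.31 and 10.39 in iEV cells with and without AP21967. It missed the threshold (0.26, SE 0.08, adjusted p = 0.066) and passed it after cyclic loess (0.30, adjusted p = 0.043). Of the 9 other genes not called here, DDX10, a helicase, and IMP4, a U3 snoRNP protein, were at 0.37 and 0.38 in iKR but 0.11 and 0.10 in iWT cells. HEATR1 was at 0.17 and 0.23, UTP20 at 0.04 and 0.26, and PNO1 at 0.12 and 0.02. RRP9, RRP12 and NOC4L were above 0 in iKR (0.27, 0.25 and 0.10) and below it in iWT (-0.05, -0.06 and -0.07), and UTP18 was at -0.09 in iKR and 0.06 in iWT. The dimmer probe sets of RRP12 were above 0 in both lines, at 0.26 and 0.04 in iKR and 0.07 and 0.21 in iWT. PNO1 and HEATR1 have a dimmer probe set each with larger differences, 0.56 and 0.41 in iKR and 0.30 and 0.24 in iWT.

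**Figure D2:**
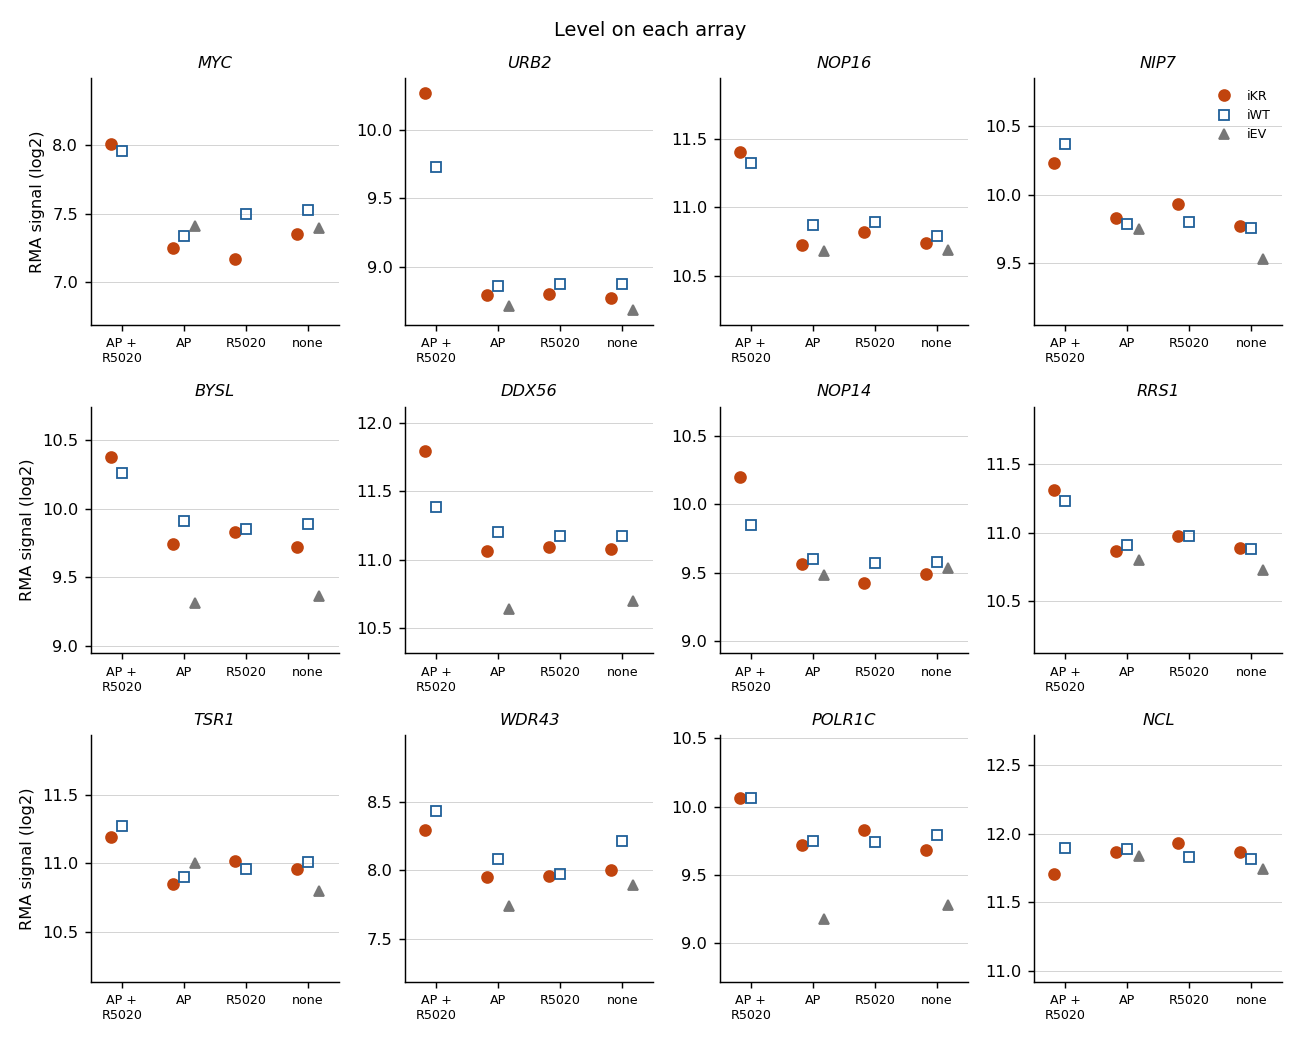
Level on each of the 10 arrays (RMA signal, log2, y axis, the same span in each panel) for MYC, the 10 called genes and NCL, by treatment on the x axis (AP is AP21967); 1 point is 1 array, with no error bar. In the receptor lines the points with both compounds stand above the other 3 for MYC and the 10 called genes, while NCL in iKR is lowest there (11.71). BYSL, DDX56 and POLR1C are lowest in iEV by a clear distance, and URB2, NOP16, NIP7, RRS1 and WDR43 are lowest there by a small one. Against iEV, URB2, NOP16, NIP7 and RRS1 were called in neither receptor line, and WDR43 in iWT only.

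Of RNA polymerase I and its helicase partner, POLR1C, a subunit shared with RNA polymerase III, was called. It was at 10.06 in iKR cells with both compounds, against 9.72, 9.83 and 9.68 with AP21967 alone, R5020 alone and neither, and at 10.06 in iWT cells, against 9.75, 9.74 and 9.79. The iEV arrays gave 9.18 with AP21967 and 9.28 without, below all others. POLR1C rose by 0.32 (SE 0.08, adjusted p = 0.036), and its second probe set gave 0.32 in iKR and 0.15 in iWT cells. The call was lost without any 1 of the 4 uninduced arrays of the receptor lines or either induced iKR array, which leaves the iWT pair alone (0.31 to 0.32, highest adjusted p = 0.069). POLR1B, the second-largest subunit of RNA polymerase I, was at 0.13 and 0.18, and DDX21, a helicase of rRNA transcription and processing, at 0.23 and 0.28, with a shared difference of 0.26 (SE 0.08, adjusted p = 0.063). Under 2 of 7 other choices of processing DDX21 was called (limma, adjusted p 0.0079 to 0.064 over the 7), so its call depended on the processing.

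Of the genes for the modification machinery and for the abundant nucleolar proteins, 0 of 8 were called by limma, against 5.23% of all genes raised and 6.25% lowered, and before adjustment 2 were higher and 0 lower at p under 0.05. FBL, or fibrillarin, the methyltransferase of box C/D snoRNPs, was at 11.59 in iKR cells with both compounds, against 11.49 to 11.50 on the other 3 arrays. In iWT cells it was at 11.38 with both, against 11.44 to 11.45, and in iEV cells at 11.34 with AP21967 and 11.31 without. The single-array differences had opposite signs (0.10 in iKR and -0.06 in iWT), and the shared difference was 0.02 (SE 0.08, adjusted p = 0.91). Of the H/ACA snoRNP proteins, which serve pseudouridylation, GAR1 was at 10.85 in iKR cells with both compounds, against 10.60 to 10.67 on the others. It was at 10.68 in iWT cells with both, against 10.54 to 10.64, and at 10.62 and 10.47 in iEV cells with and without AP21967, and the shared difference was 0.19 (SE 0.08, adjusted p = 0.16). The snoRNP chaperone NOLC1 was at 0.25 in iKR and 0.13 in iWT, while NHP2 was at 0.04 and -0.09 and NOP10 at 0.06 and -0.07. The dimmer probe sets of NOLC1, with means of 10.51 and 9.50, gave 0.27 and 0.45 in iKR and 0.22 and 0.20 in iWT.

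NCL, or nucleolin, was at 11.71 in iKR cells with both compounds, against 11.87 with AP21967 alone, 11.93 with R5020 alone and 11.87 with neither. In iWT cells it was at 11.90, against 11.89, 11.83 and 11.82, and in iEV cells at 11.84 with AP21967 and 11.74 without. The iKR array with both compounds was the lowest of all 10, and the shared difference was -0.08 (SE 0.08, adjusted p = 0.59). NPM1, or nucleophosmin, was at -0.13 in iKR and 0.01 in iWT, and its relative NPM3 at -0.10 and 0.04. On their brightest probe sets all 3 lay below 0 in iKR and at or just above 0 in iWT cells. The dimmer probe sets of NPM1, with means of 13.32 and 13.1, gave -0.05 and -0.01 in iKR and 0.0 and -0.05 in iWT.

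Median differences with AP21967 by role were 0.335 in iKR and 0.178 in iWT for 60S assembly, 0.261 and 0.171 for the small subunit pathway, and 0.228 and 0.285 for RNA polymerase I with DDX21. They were 0.152 and 0.032 for the H/ACA proteins and -0.127 and 0.014 for the phosphoproteins. In all, 5 genes passed 1.5 fold in iKR (URB2, DDX56, NOP16, NOP14 and BYSL) and 1 in iWT (URB2), against 3.02% and 1.59% of all genes, and 0 passed it downwards, against 3.16% and 1.02%. URB2 in iKR was also past 2.0 fold, as were 0.999% of all genes in iKR and 0.513% in iWT. Of the 10 called genes, 7 had the larger difference in iKR, as did 25 of the 38 genes and 57.7% of all genes. Over the 38 genes the iKR difference minus the iWT difference had a median of 0.118, against 0.045 over all genes, and 1 gene, URB2 at 0.60, passed 1.5 fold, as did 1.03% of all genes. With 1 array per condition this difference between receptors was not tested.

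**Figure D3:**
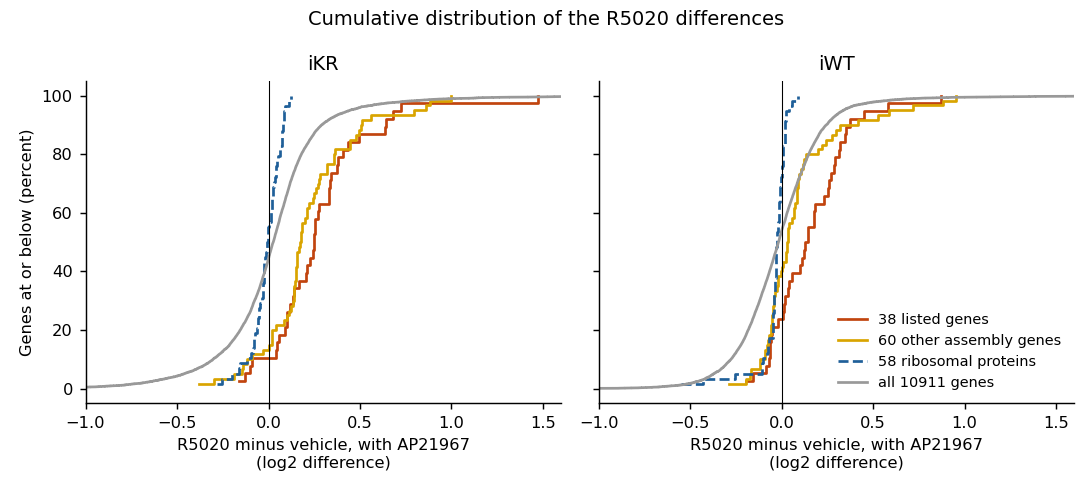
Percent of genes (y axis) at or below each R5020 minus vehicle difference with AP21967 (log2, x axis, cut at -1.0 and 1.6) in iKR on the left and iWT on the right; each step is 1 gene. Over most of its length the curve of the 38 genes lies to the right of that of all 10911 genes, with medians of 0.249 against 0.026 in iKR and 0.135 against -0.017 in iWT, and the 58 ribosomal protein genes cluster around 0.

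Without AP21967, R5020 changed 0 of the 38 genes by limma, against 0.00917% of all genes raised and 0 lowered. Before adjustment, 1 gene (NPM3) was higher at p under 0.05 and 0 were lower. The single-array medians were 0.052 in iKR and 0.015 in iWT cells, and NPM3 had the largest differences, 0.37 and 0.21. For the inducer-dependent response, 1 gene was called higher and 0 lower, against 1.41% and 0.687% of all genes, and before adjustment 10 passed p under 0.05 upwards and 1 downwards, against 847 and 764 of all genes. Its median was 0.148 over the 38 genes and 0.002 over all. WDR43 (0.48, adjusted p = 0.077) and NOP16 (0.47, adjusted p = 0.089) came next by adjusted p. This count depended on single arrays: without either induced iWT array 8 genes were called (7 higher, and NPM3 lower), and without either induced iKR array 3. In each of these fits the induced response rests on the 1 pair of the other line, which is assumed to vary like the uninduced pairs.

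The rest of the pathway was read from lists of related genes, in the shared fit in which 5.23% of all genes rose and 6.25% fell with AP21967. Of 60 other measured ribosome assembly genes, 9 rose and 0 fell with AP21967 by limma, with a median of 0.096. MPHOSPH10, a U3 snoRNP protein, rose by 0.87 (SE 0.08, adjusted p = 0.00027), with 0.86 in iKR and 0.88 in iWT. RCL1, a processome protein, rose by 0.86 (1.00 in iKR and 0.72 in iWT), TEX10, a 60S processing factor, by 0.71 (0.88 and 0.53) and the helicase gene DDX24 by 0.69 (0.79 and 0.59). These 4 were also called higher for the inducer-dependent response, as were 1.41% of all genes, and NOC3L, UTP11, UTP3, MAK16 and BRIX1 rose by 0.32 to 0.49. Of 11 other RNA polymerase I factors, POLR1E, a polymerase subunit, rose by 0.46 (adjusted p = 0.034), and the median was -0.027.

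In the same fit, 5.23% of all genes were called higher and 6.25% lower. Of 58 genes for the ribosomal proteins themselves, 0 were called higher by limma and 1 lower, against 0 and 3 at p under 0.05 before adjustment. The 1 gene that fell was RPLP2 of the acidic stalk (-0.38, SE 0.10, adjusted p = 0.041), and the median of the 58 was -0.013. Their single-array differences ran between -0.28 and 0.12 in iKR and between -0.55 and 0.09 in iWT cells. Of 12 measured genes of the MYC network, MYC and MXD1, whose protein competes with MYC for MAX, rose (MXD1 by 0.37, adjusted p = 0.018), and MLXIP, or MondoA, fell by 0.54 (adjusted p = 0.0063). Of 18 growth genes often linked to MYC, such as nucleotide synthesis enzymes, 1 rose, against 5.23% of all genes. It was PPAT, the entry enzyme of purine synthesis (0.34, adjusted p = 0.023, limma), and the median of the 18 was 0.099.

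AP21967 alone changed 0 of the 38 genes and 0 of all 10911 genes by limma in the 6 arrays without R5020. Before adjustment, p was under 0.05 upwards for 1 of the 38 and downwards for 1, and for 501 and 480 of all genes. The median over the 38 genes was 0.009. NPM3 had the largest differences, 0.48 in iKR, 0.05 in iWT and 0.27 in iEV cells, and it was at 10.07 and 9.59 in iKR cells with and without AP21967. TSR1 was lower by 0.11 with AP21967 in both receptor lines and higher by 0.20 in iEV. Its dimmer probe sets gave 0.05 and -0.17 in iKR, -0.04 and -0.05 in iWT, and 0.23 and 0.24 in iEV.

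Against iEV, the receptor lines held more RNA of several of these genes without any progestin. In iKR cells 8 of the 38 genes (21.1%) were called higher and 0 lower, against 12.9% and 12.8% of all genes, and in iWT cells likewise 8 (21.1%) and 0, against 12% and 11.8%. Both comparisons use the same 2 iEV arrays. POLR1C was higher by 0.48 in iKR (SE 0.06, adjusted p = 0.0011) and by 0.54 in iWT (SE 0.06, adjusted p = 0.00061). BYSL was higher by 0.40 (adjusted p = 0.0021) and 0.56 (adjusted p = 0.00041), and DDX56 by 0.40 (adjusted p = 0.0021) and 0.51 (adjusted p = 0.00063), iKR before iWT.

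NOP10, the smallest H/ACA protein, was at 12.89 and 12.92 in iKR cells with and without AP21967 and at 12.93 and 12.89 in iWT cells, against 12.41 and 12.49 in iEV cells. The groups did not overlap, and the difference was 0.46 in each line (adjusted p = 0.0012 in both). With AP21967, its R5020 differences were 0.06 in iKR and -0.07 in iWT. RRP12, a factor of 40S maturation and export, was at 9.75 and 9.82 in iKR and at 9.87 and 9.77 in iWT, against 9.51 and 9.39 in iEV (0.34 and 0.37, adjusted p = 0.0086 and 0.006). This call rests on its brightest probe set. The dimmer probe sets of RRP12 differed less from iEV, by -0.02 to 0.13 in iKR and by -0.06 to 0.14 in iWT. WDR74 was at 11.02 and 10.93 in iKR and at 10.91 and 10.81 in iWT, against 10.60 and 10.65 in iEV (0.35 and 0.23, adjusted p = 0.0055 and 0.031).

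The other calls were near the threshold in 1 of the lines. DDX21 was called in iKR (0.20, adjusted p = 0.042) and was at 0.15 in iWT (adjusted p = 0.12), and NOC4L in iKR (0.20, adjusted p = 0.033) and at 0.17 in iWT (adjusted p = 0.067). WDR43 was called in iWT (0.33, adjusted p = 0.0052) and was at 0.16 in iKR (adjusted p = 0.08), and GRWD1 in iWT (0.26, adjusted p = 0.014) and at 0.07 in iKR (adjusted p = 0.39). Between iKR and iWT directly, 0 of the 38 genes were called by limma, against 2.91% of all genes higher and 2.11% lower in iKR, and before adjustment p was under 0.05 for 0 upwards and 6 downwards, against 1017 and 1005 of all genes. MYC was at -0.11 in iKR (adjusted p = 0.30) and 0.03 in iWT (adjusted p = 0.77) against iEV. The counts against iEV fell to 5 in iWT without its uninduced array and to 4 without its induced array, and to 5 in iKR without its uninduced array.

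**Figure D4:**
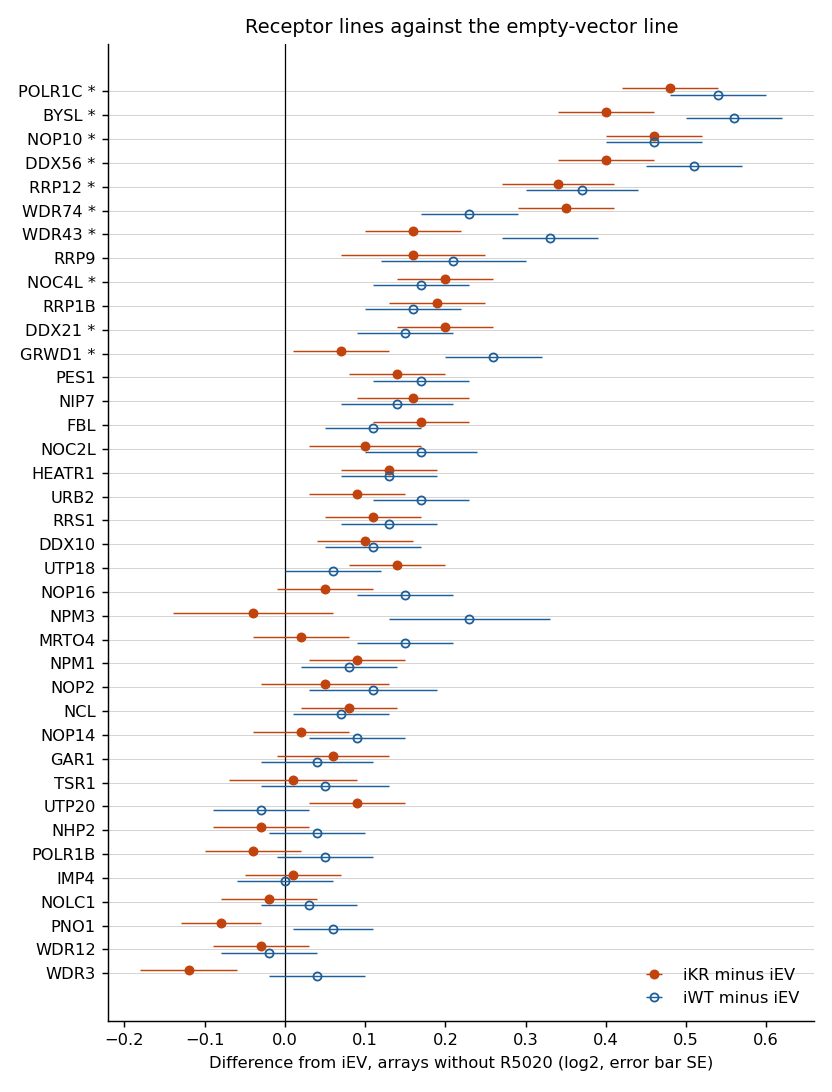
Difference of iKR (filled circles) and iWT (open circles) from iEV on the arrays without R5020 (log2, x axis) for the 38 genes, with error bars of 1 SE from the limma fit; an asterisk marks a gene called in at least 1 line. POLR1C, BYSL, NOP10 and DDX56 lie at 0.40 or more in both lines, and WDR3 in iKR is lowest at -0.12.

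The related lists were read in the same receptor comparisons, in which 12.9% of all genes were called higher and 12.8% lower in iKR, and 12% and 11.8% in iWT. Of the 60 other assembly genes, 13 were called higher and 1 lower in iKR against iEV, and 14 and 1 in iWT. Of the 58 ribosomal protein genes, 5 were called higher in iKR and 6 in iWT, and 0 lower in either. Of the 18 MYC-linked growth genes, the iKR line had 2 called higher and 8 called lower, and the iWT line 1 and 7.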

How the data were processed

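The 10 RNA samples were hybridized to Affymetrix human gene arrays, and the authors deposited log2 probe set signals made by Robust Multi-array Average. These values were used without further normalization. Of 22277 probe sets, 19070 map to 1 gene, 1043 to several and 2164 to none listed. Each of 11963 genes was read on its brightest single-gene probe set, and 10911 whose highest array reached log2 6 were kept. Arrays have no read depth, and their number limits the precision.

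With limma 3.58.1 in R 4.3.3, 8 iKR and iWT arrays were fitted with 4 means, 1 for each line with and without AP21967, plus separate R5020 terms for the 2 inducer states (2 residual degrees of freedom, 8.83 with the prior). The 6 arrays without R5020 were fitted with line and AP21967 (2 residual, 7.58 with the prior). The functions were tested on simulated data. Promoter windows came from RefSeq (GRCh38.p14).

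Genes given on every array are MYC, those called for the inducer-dependent response, the 12 with the largest mean R5020 difference with AP21967 and the largest of each of 6 roles. The genes, roles and comparison lists were chosen with earlier results of these data known. Alternatives were the level filter, the choice of probe set, cyclic loess, median centring, the prior, the array subtracted, the fold threshold and, chosen after seeing the data, leaving out single arrays. Python 3.11.15, pandas 2.3.3, numpy 2.4.6 and matplotlib 3.10.9 were used.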

Additional observations from a re-analysis of the deposited data

Results flagged for a closer look

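A few genes moved in opposite directions in 2 lines by more than 0.1 (log2) each. These are differences of single-array differences, and none was tested. With AP21967, R5020 gave GRWD1 a difference of 0.28 in iKR and -0.16 in iWT, so that the lines differed by 0.43. AP21967 alone gave TSR1 -0.11 in iKR and 0.20 in iEV, a difference of -0.31, and -0.11 in iWT, likewise -0.31 from iEV. The dimmer probe sets of TSR1 gave 0.05 and -0.17 in iKR, -0.04 and -0.05 in iWT, and 0.23 and 0.24 in iEV. The fall in the receptor lines thus varied with the probe set. For RRP9, AP21967 alone gave -0.22 in iKR and 0.10 in iWT, a difference of -0.32.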

How the results depend on the processing

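The counts of called genes stayed within 1.5 times the reported count under each other choice of processing (level filter, probe sets, loess, centring and prior): 7 to 13 for R5020 with AP21967, 1 for the inducer-dependent response, 8 to 12 in iWT and 7 to 10 in iKR against iEV, and 0 elsewhere. Without probe sets marked _x_at or _s_at only 24 of the 38 genes were tested, so its counts, the 7 with AP21967 among them, have another base. The NOP16 call was also lost without probe sets marked _x_at or _s_at (0.31, adjusted p = 0.061), and the DDX56 call with the mean of probe sets (0.45, adjusted p = 0.054). A 2.0 fold threshold left 1 gene in iKR and 0 in iWT, in place of 5 and 1. Median differences with AP21967 ran between 0.176 and 0.263 in iKR and between 0.098 and 0.219 in iWT over these alternatives. The 0.263 in iKR covers only the 24 genes left without probe sets marked _x_at or _s_at.

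Leaving out each array in turn, which was chosen after seeing the data, gave 7 to 14 genes for R5020 with AP21967, 1 to 8 for the inducer-dependent response, 5 to 7 in iKR and 4 to 9 in iWT against iEV, and 0 for the other comparisons. Without 1 array of a receptor line, the R5020 response in that inducer state rests on the single pair of the other line, which is assumed to vary like the remaining pairs. With AP21967, POLR1C was called in 2 and WDR43 in 4 of 8 such fits. MYC lost its inducer-dependent call without either uninduced iKR array (0.72, adjusted p = 0.086). Among the genes given on every array, some differences that were not called changed sign. They were those of FBL (-0.06 to 0.10 with AP21967, -0.07 to 0.10 inducer-dependent), NCL (-0.16 to 0.00 with AP21967) and NOP2 (-0.03 to 0.42, inducer-dependent). With AP21967, 13 of the measured genes, FBL and NCL among them, had opposite signs in the 2 lines. For each, the difference left without an induced array is that of the other line, so it takes the sign of that line. The cause of these sign changes was not tested. No paired analysis was possible because every sample carries the same replicate number, which pairs no samples. The R5020 fit already sets each R5020 array against the vehicle array of its own line and inducer state.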
